A study of Bos taurus with 6 samples.

Results

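Transcripts of 6 genes that mammalian cells read from mitochondrial DNA, COX1, COX2, COX3, CYTB, ND1 and ATP6, were measured in MAC-T cells, an established line of bovine mammary epithelial cells. The members were taken by gene ID and made up 6 of the 28522 gene rows of the count tables. Subconfluent cells had received either a miR-199a-3p mimic, a synthetic small RNA that supplies this microRNA, or a negative control (NC) mimic, both at 50 nM, and were harvested 48 h later. Each group had 3 libraries, all from the same line with no untransfected group, and the labels do not say whether the cultures of a group were independent. All p-values below thus speak only to sample-to-sample variation, part or all of which could be technical. The count tables pair no ID with a gene symbol. The names of the 6 genes are those given with their IDs in the list of members, and defining markers of mammary epithelium or of other cell types were not analysed here.

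Mitochondrial DNA of mammals is a small circle in the organelle that is transcribed into long precursor RNAs. These are cut, mostly at transfer RNAs that lie between genes, to release the messengers. The messengers carry short poly(A) tails and are therefore captured in poly(A)-selected libraries. All proteins encoded there are core subunits of the respiratory chain or of the ATP synthase, where they assemble with many subunits made from nuclear genes. In the mammary epithelium this machinery supplies the ATP for the synthesis and secretion of milk.

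The 6 genes stand on 3 different stretches of the circle. In the gene order of the RefSeq table of assembly ARS-UCD2.0, used here for names and neighbours, ND1 is the first of 13 protein-coding genes and CYTB the last. COX1 and COX2 are neighbours, with only genes for transfer RNAs between them. They are followed by ATP8, ATP6 and COX3, and ATP6 overlaps both ATP8 and COX3 in that table. How reads in such overlaps, or reads from copies of mitochondrial DNA in the nuclear genome, were counted is not given in the labels or headers, so the values of ATP6 and COX3 in particular carry that uncertainty.

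Totals of 16303257 to 23720655 counts per library made the counting error small for every member. The lowest count of any member was 50793, and the Poisson error of a single library was at most 0.444%. NC replicate 2 stood apart from its group over all genes tested, with a Pearson correlation of log2 CPM (counts in every 1000000 of the library) of 0.985 to each of the other NC libraries, against 0.993 between those. These correlations are across genes, which are not independent replicates. Calls that turn on NC replicate 2 are given with and without it, as are some of the other values.

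Together the 6 genes took 3.65%, 3.81% and 4.07% of all counts in NC replicates 1, 2 and 3. In the mimic libraries they took 3.91%, 4.06% and 4.02%. The exact binomial 95% intervals of single libraries were narrow, for example 3.64 to 3.66% in NC replicate 1, and cover counting error only. The group means were 3.847 ± 0.213% for NC and 3.997 ± 0.0754% for the mimic (SD, n = 3), a difference of 0.151 percentage points that is smaller than the SD of the NC libraries. The groups overlapped, since the NC libraries lay on both sides of all 3 mimic libraries. Without NC replicate 1, the library with the lowest share, the difference was 0.0529 points, and without NC replicate 3, the library with the highest, it was 0.264 points. NC replicate 1 also had the highest total count and NC replicate 3 the lowest, and the part of depth in these shares was not tested. In bulk samples a share does not tell fewer mitochondrial transcripts per cell from more RNA of other kinds.

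**Figure D1:**
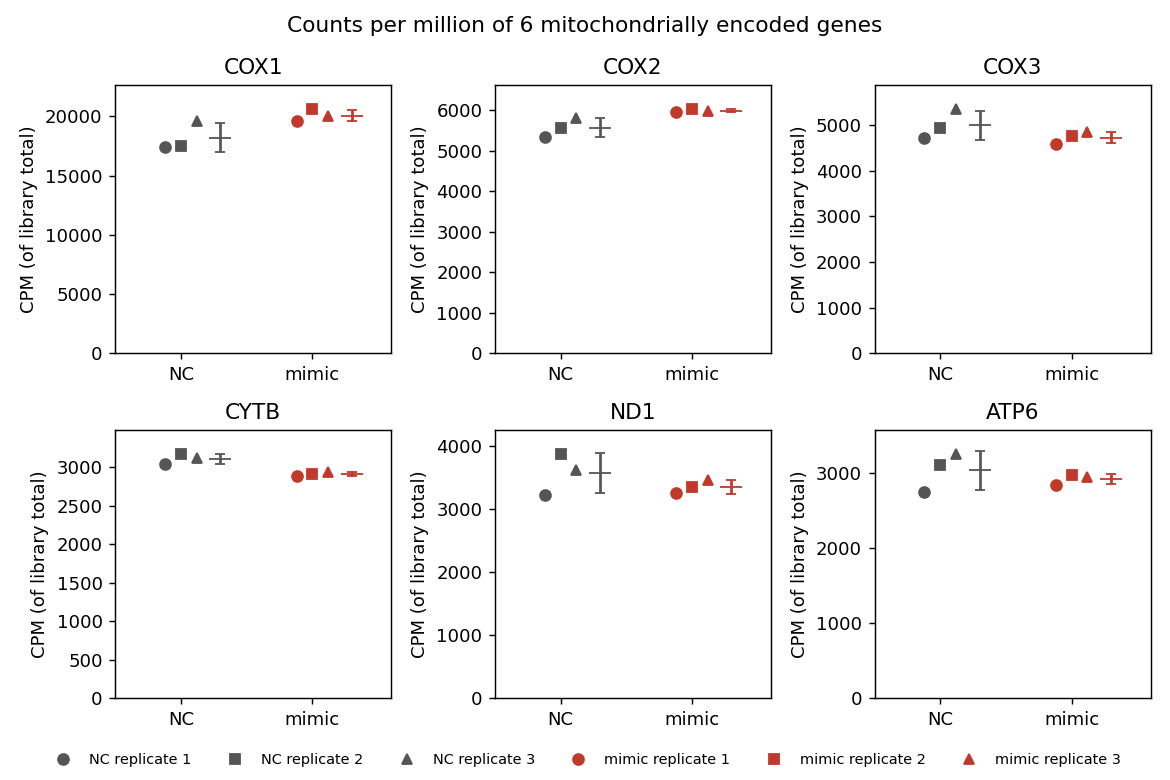
CPM of the library total (vertical axes, from 0) of each of the 6 genes in the 3 NC (grey) and 3 mimic (red) libraries, with the group mean and SD beside the points. COX1 and COX2 lie higher in every mimic library than in any NC library, for COX1 by a margin within counting error. CYTB lies lower, and COX3, ND1 and ATP6 overlap.

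COX1 was the member that passed the test, and it was higher with the mimic. Of the 6 genes, 1 rose, 0 fell and 5 did not pass the threshold of an adjusted p under 0.05 (edgeR quasi-likelihood test, two-sided, with Benjamini-Hochberg adjustment over 13949 rows). Over all rows tested 11.8% were called, 7.38% as higher and 4.4% as lower with the mimic, so 1 call among 6 members is near the background. At an unadjusted p under 0.05 there were 2 of the 6 members, COX1 and COX2, against 27.6% of all rows. The median log2 fold change of the 6 members was -0.01, against -0.00 over all rows tested, and their range was -0.04 to 0.20. Their median was 0.02 without NC replicate 2. Of the 25 rows with the highest mean share of counts, which include all 6 members, 19 were other rows, of which 9 were called as higher and 0 as lower. This ranking used the mean of all 6 libraries, and whether that favours rows that rose was not tested.

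COX1 (ENSBTAG00000043561) encodes the catalytic subunit of cytochrome c oxidase (complex IV), which holds the haem and copper centre where oxygen is reduced. It was the row with the most counts of the whole table. COX1 measured 17452, 17511 and 19596 CPM of the library total in NC replicates 1, 2 and 3 and 19610, 20599 and 20009 CPM in mimic replicates 1, 2 and 3. The mimic libraries all lay above the NC libraries, but mimic replicate 1 exceeded NC replicate 3 by less than the Poisson error of either library. That error was at most 0.177% for COX1, so this separation in CPM of the library total lay within counting error. In CPM of the library total, 3 of the 6 members had groups that did not overlap, COX1 and COX2 with the mimic above and CYTB with it below. Over all rows tested 36.1% were separated on this scale, 13.8% with the mimic above and 22.3% with it below. In TMM-scaled CPM, 2 of the 6 members were separated, COX1 and COX2, against 34.2% of all rows, 18.3% above and 15.9% below. The log2 fold change of COX1 after TMM scaling was 0.20 (SE 0.05, 1.15-fold, 95% interval 0.07 to 0.32, edgeR adjusted p = 0.0486). This call lay at the threshold. It was lost with RLE, upper-quartile or library-size scaling (adjusted p = 0.0517, 0.0561 and 0.118), with DESeq2 (0.0732), and without NC replicate 1 (0.0925) or mimic replicate 1, 2 or 3 (0.133, 0.185 and 0.144). Without NC replicate 2 the log2 fold change of COX1 was 0.17 (edgeR adjusted p = 0.0040). In that fit 24.5% of all rows were called, against 11.8% with all 6 libraries.

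COX2 (ENSBTAG00000043556) carries the copper centre that takes electrons from cytochrome c and passes them to COX1. COX2 measured 5336, 5558 and 5816 CPM in NC replicates 1, 2 and 3 and 5958, 6020 and 5989 CPM in the mimic libraries. The groups did not overlap, and the spread between mimic libraries was the smallest of the 6 members, with a coefficient of variation of 0.511% against 4.32% in NC. The log2 fold change of COX2 was 0.16 (SE 0.05, 95% interval 0.05 to 0.26), and it did not pass the threshold (edgeR adjusted p = 0.0617). It passed with limma-voom (adjusted p = 0.0389) and without NC replicate 2 (edgeR adjusted p = 0.0068). The fit without NC replicate 2 called 24.5% of all rows.

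COX3 (ENSBTAG00000043560) encodes the remaining subunit of the mitochondrially encoded core of complex IV. COX3 measured 4715, 4942 and 5349 CPM in NC replicates 1, 2 and 3 and 4587, 4764 and 4842 CPM in the mimic libraries. The groups overlapped, with NC replicate 3 the highest of all and NC replicate 1 within the range of the mimic libraries. Fitted over the whole table, COX3 had a log2 fold change of -0.03 (95% interval -0.15 to 0.10, edgeR adjusted p = 0.790).

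CYTB (ENSBTAG00000043550) encodes cytochrome b, the subunit of complex III on which ubiquinol is oxidised. CYTB measured 3037, 3166 and 3116 CPM in NC replicates 1, 2 and 3 and 2893, 2911 and 2944 CPM in the mimic libraries. All mimic libraries lay below the NC libraries in CPM of the library total. After TMM scaling the groups overlapped, with NC replicate 1 at 2966 CPM and the mimic libraries at 2959, 2960 and 2998 CPM. CYTB had a fitted log2 fold change of -0.04 (95% interval -0.13 to 0.06) and did not pass the threshold (edgeR adjusted p = 0.606).

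ND1 (ENSBTAG00000043558) encodes a membrane subunit of NADH dehydrogenase (complex I) next to the site where ubiquinone binds. ND1 measured 3229, 3863 and 3624 CPM in NC replicates 1, 2 and 3 and 3248, 3343 and 3455 CPM in the mimic libraries. The mimic libraries lay inside the range of the NC libraries. ND1 had the widest spread of the members in NC, a coefficient of variation of 8.97%, with NC replicate 2 the highest. For ND1 the log2 fold change was -0.04 (95% interval -0.19 to 0.11, edgeR adjusted p = 0.744), and 0.02 without NC replicate 2 (edgeR adjusted p = 0.825).

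ATP6 (ENSBTAG00000043584) encodes the subunit of the ATP synthase (complex V) that forms the path of protons through the membrane. ATP6 measured 2742, 3107 and 3242 CPM in NC replicates 1, 2 and 3 and 2841, 2964 and 2943 CPM in the mimic libraries. Again the mimic libraries lay inside the NC range. For ATP6 the log2 fold change was -0.00 (95% interval -0.15 to 0.15, edgeR adjusted p = 0.987), and 0.01 without NC replicate 2 (edgeR adjusted p = 0.883).

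For COX3, CYTB, ND1 and ATP6 the missed threshold does not show that the levels were equal. The intervals of these 4 genes ran from -0.19 at the lowest to 0.15 at the highest, so changes up to that size could not be told from none.

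**Figure D2:**
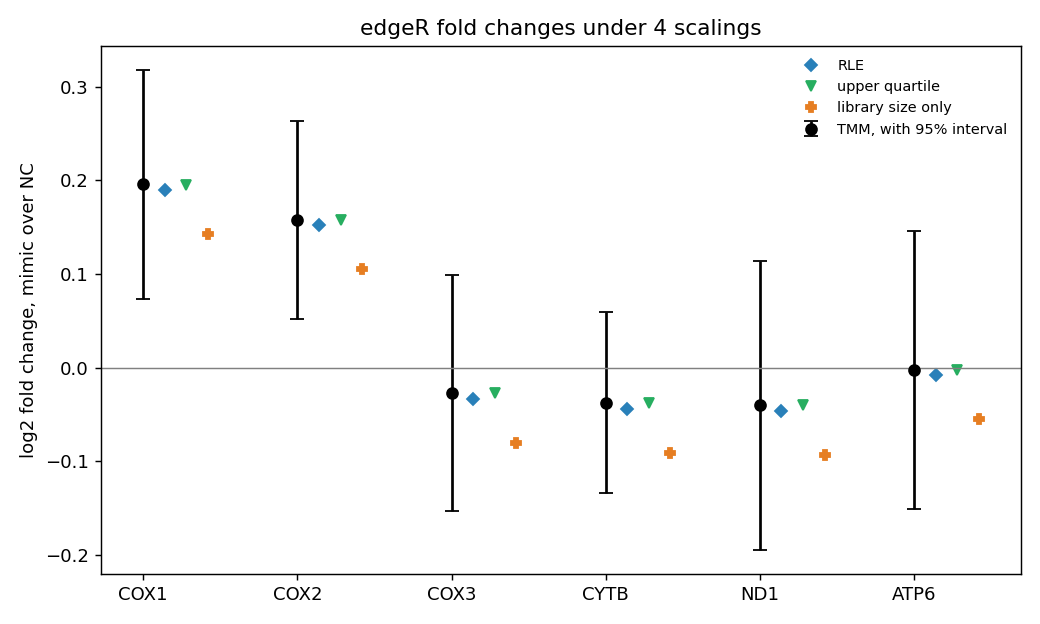
Log2 fold change of mimic over NC (vertical axis) of each gene, as fitted with edgeR under TMM scaling with its 95% interval (black) and under RLE, upper-quartile and library-size scaling (coloured, no interval drawn). Scaling by library size lowers all 6 values by a like amount, and COX1 and COX2 stay above 0 under all 4 scalings.

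Scaling moved the 6 values together. The TMM factors were 1.02 in each NC library and 0.978 to 0.984 in the mimic libraries, so that TMM raised the fold changes relative to the library totals. With library size as the only scaling the log2 fold change was 0.14 for COX1 and 0.10 for COX2, and the median of all rows tested moved to -0.06. The calls over all rows then split into 768 higher and 1010 lower, against 1029 and 614 with TMM. COX1 and COX2 were above 0, and COX3, CYTB, ND1 and ATP6 below 0, under every scaling run.

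The replicate spread was larger in NC than in the mimic group for every member. This was not particular to the members. Over all rows tested, pairs of NC libraries differed by a chi-square per degree of freedom of 8.37 to 38.2, against 2.67 to 4.20 for mimic pairs. The coefficient of variation of CPM ranged from 2.10 to 8.97% over the 6 genes in NC and from 0.511 to 3.09% in the mimic group. All of these exceeded the counting error. In TMM-scaled CPM the coefficient of COX2 in the mimic group was 0.243%, which is below its counting error. NC replicate 1 was the lowest NC library for all 6 genes, and mimic replicate 1 the lowest mimic library. NC replicate 3 was the highest NC library for COX1, COX2, COX3 and ATP6, and NC replicate 2 for CYTB and ND1. Because edgeR estimated 1 dispersion for each gene across both groups, its p-values do not reflect this inequality.

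**Figure D3:**
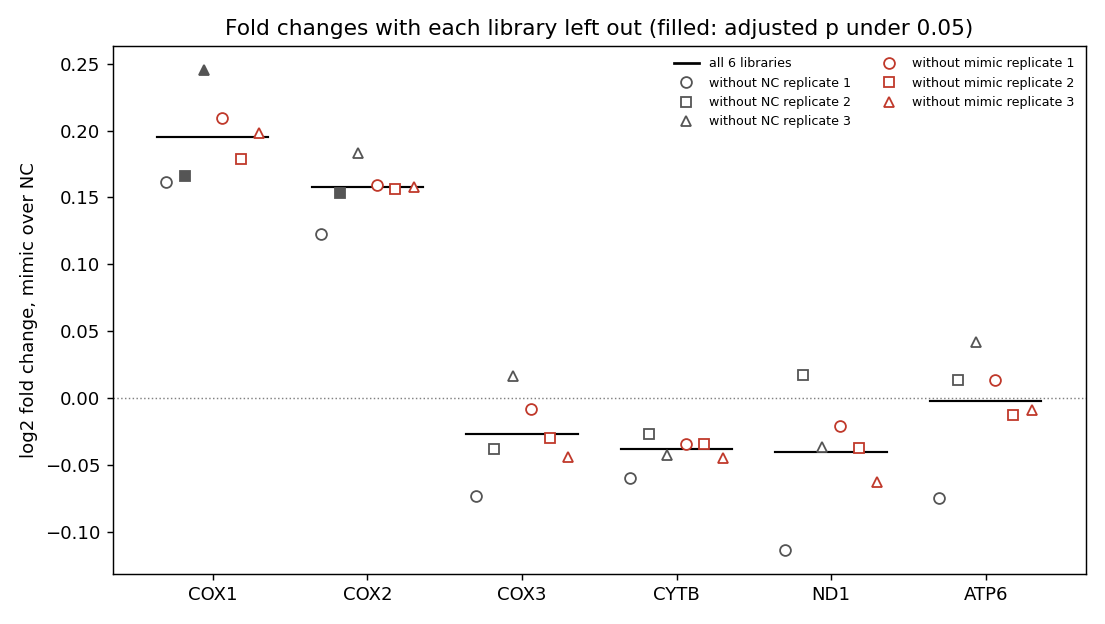
Log2 fold change of mimic over NC (vertical axis) of each gene with all 6 libraries (black line) and with each library left out in turn (grey symbols for NC, red for mimic; filled where the edgeR adjusted p was under 0.05). COX1 and COX2 stay above 0 in all of these fits, and COX3, ND1 and ATP6 lie on both sides of 0.

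Ratios of members within a library do not depend on how libraries are scaled. Counted this way, COX1 and COX2 were higher relative to the remaining 4 genes in every mimic library than in any NC library. The ratio of COX1 to COX3 counts was 3.70, 3.54 and 3.66 in NC replicates 1, 2 and 3 and 4.27, 4.32 and 4.13 in the mimic libraries. The ratio of COX1 to CYTB was 5.75, 5.53 and 6.29 in NC and 6.78, 7.08 and 6.80 in mimic libraries. The ratio of COX2 to COX3 was 1.132, 1.124 and 1.087 in NC and 1.299, 1.263 and 1.237 in mimic libraries. In each of these the 3 mimic values lay above the 3 NC values.

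Of the 15 pairs of members, 8 had groups that did not overlap, and these were the 8 that set COX1 or COX2 against COX3, CYTB, ND1 or ATP6. Their log2 ratios differed between the groups by 0.16 (COX2 to ATP6) to 0.24 (COX1 to CYTB), with exact permutation p = 0.1 (two-sided) for each, which is the lower limit with 3 libraries a group, and 0.188 when adjusted over the 15 pairs. Among all pairs of rows with a mean of at least 100 CPM, 49.3% did not overlap, so 8 of 15 is near the background and is no result about these genes. The other 7 pairs overlapped. The ratio of COX1 to COX2 was 3.27, 3.15 and 3.37 in NC and 3.29, 3.42 and 3.34 in the mimic libraries (exact permutation p = 0.4), and CYTB to ND1 was 0.940, 0.819 and 0.860 in NC and 0.891, 0.871 and 0.852 in the mimic libraries (exact permutation p = 1). The difference for COX1 to ND1, 0.23 on the log2 scale, was 0.15 without NC replicate 2. These ratios were chosen for display after the values of the members had been seen.

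**Figure D4:**
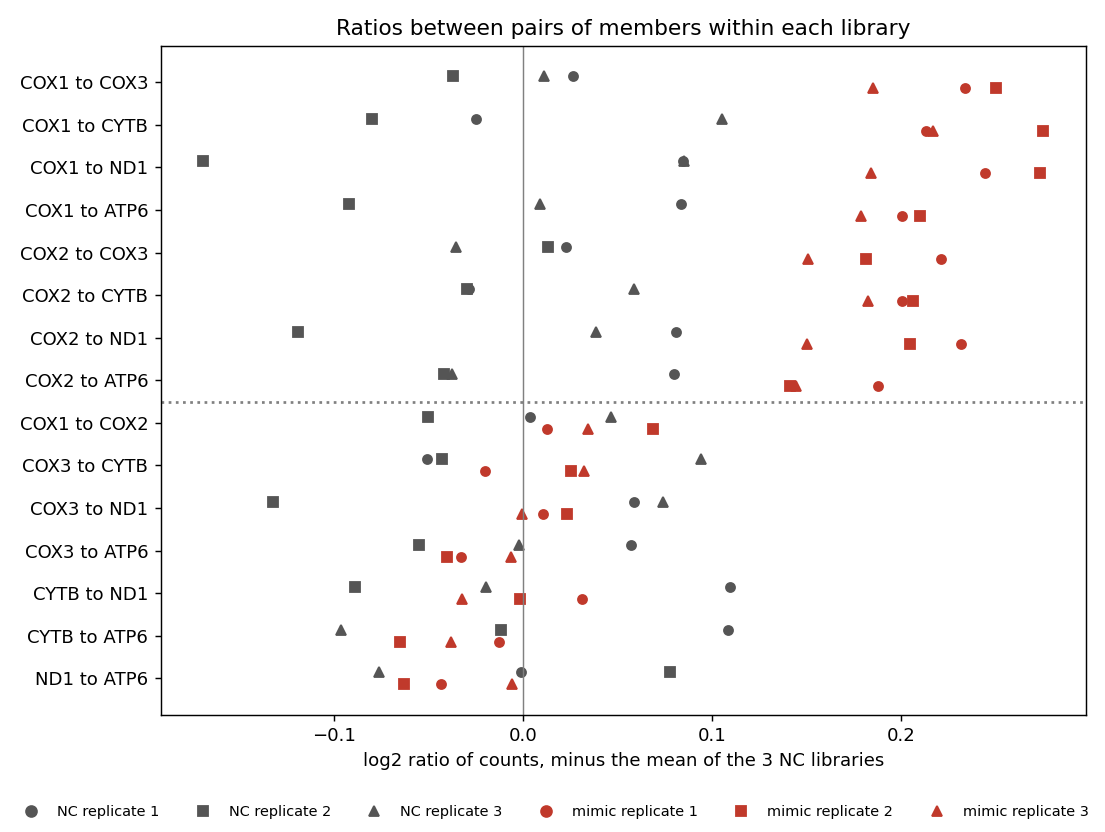
Log2 ratio of the counts of 2 members in each library, minus the mean of the 3 NC libraries (horizontal axis), for all 15 pairs, NC in grey and mimic in red. Above the dotted line stand the 8 pairs of COX1 or COX2 with another member, where mimic and NC libraries do not overlap, and below it the other 7 pairs, where they do.

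Expressed as parts of their own sum, COX1 differed by 2.94 percentage points between the groups and the other members by -1.16 to 0.499 points. COX1 held the largest part, and differences in points do not rank the members by relative change. COX1 made up 47.3 ± 1.19% of the sum in NC and 50.2 ± 0.478% in the mimic group (SD, n = 3). COX2 made up 14.49 ± 0.184% and 14.99 ± 0.211%. The parts of the others were lower with the mimic, at 13.0 ± 0.115% and 11.8 ± 0.186% for COX3, 8.09 ± 0.382% and 7.30 ± 0.114% for CYTB, 9.29 ± 0.727% and 8.38 ± 0.193% for ND1, and 7.87 ± 0.326% and 7.29 ± 0.0336% for ATP6. The part of ND1 was 8.84%, 10.1% and 8.89% in NC replicates 1, 2 and 3, so its NC mean was raised by NC replicate 2. Parts of a sum depend on each other, and no test of them is given. These are parts of counts, which grow with the length of a transcript, and they do not rank the abundance of the transcripts. Gene lengths for the build of the count tables were not used here.

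Across the 6 libraries the Pearson correlation of log2 TMM-scaled CPM was 0.965 for COX1 with COX2. Among COX3, CYTB, ND1 and ATP6 the correlations ran from 0.580 (COX3 with CYTB) to 0.891 (COX3 with ATP6). COX1 correlated with COX3, CYTB, ND1 and ATP6 at 0.276, -0.453, -0.0484 and 0.395. For COX2 the values in the same order were 0.219, -0.354, 0.0879 and 0.429. These values describe 6 libraries that share the difference between the groups and the scaling factors, and no test was made.

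Of 1967 other rows with a mean of at least 100 CPM, the 3 whose profile over the 6 libraries was most like the mean log2 TMM-scaled CPM of the members were ENSBTAG00000011319 (Pearson r = 0.988), ENSBTAG00000043571 (r = 0.971) and ENSBTAG00000001700 (r = 0.947). The files give no names for them. With 1 library left out the lowest r of these rows was 0.920, 0.727 and 0.745. ENSBTAG00000043571 measured 2052, 2604 and 2623 CPM in NC replicates 1, 2 and 3 and 2350, 2568 and 2605 CPM of the library total in the mimic libraries. Like the members it was lowest in replicate 1 of each group, which restates the likeness by which the row was picked. Of the 1967 rows, 15 had an r over 0.9, and no test was made.

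The Ensembl numbers of the members run from 43550 to 43584, and 28 other rows of the tables have numbers between these. No source used here names these rows or says which of them lie on mitochondrial DNA, and they are described by number only. Together they held 1.25 ± 0.127% of all NC counts and 1.23 ± 0.0449% of all mimic counts (SD, n = 3). Of the 28 rows, 20 could be tested, of which 0 were called as higher and 1 as lower (edgeR), against 11.8% of all rows. Of the 20, 3 passed an unadjusted p under 0.05, against 27.6% of all rows. A mean under 100 CPM was found for 11 of the 20, and the part of low counts in these calls was not tested. The median log2 fold change of the 20 rows was 0.03, against -0.00 over all rows tested.

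The row that fell was ENSBTAG00000043570. It measured 646, 1146 and 966 CPM in NC replicates 1, 2 and 3 and 554, 569 and 590 CPM in the mimic libraries. The mimic libraries lay close together below all NC libraries, and NC replicate 1 stood nearest to them. ENSBTAG00000043570 had a log2 fold change of -0.64 (SE 0.17, edgeR adjusted p = 0.0445). The call was lost with limma-voom (adjusted p = 0.0695) and without NC replicate 3 (0.106) or mimic replicate 1, 2 or 3 (0.160, 0.146 and 0.133, edgeR). Without NC replicate 2, the highest library, the log2 fold change was -0.45 (edgeR adjusted p = 8.6e-04), and 5 rows with numbers in this range were called, 3 as higher and 2 as lower. In that fit 24.5% of all rows were called.

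**Figure D5:**
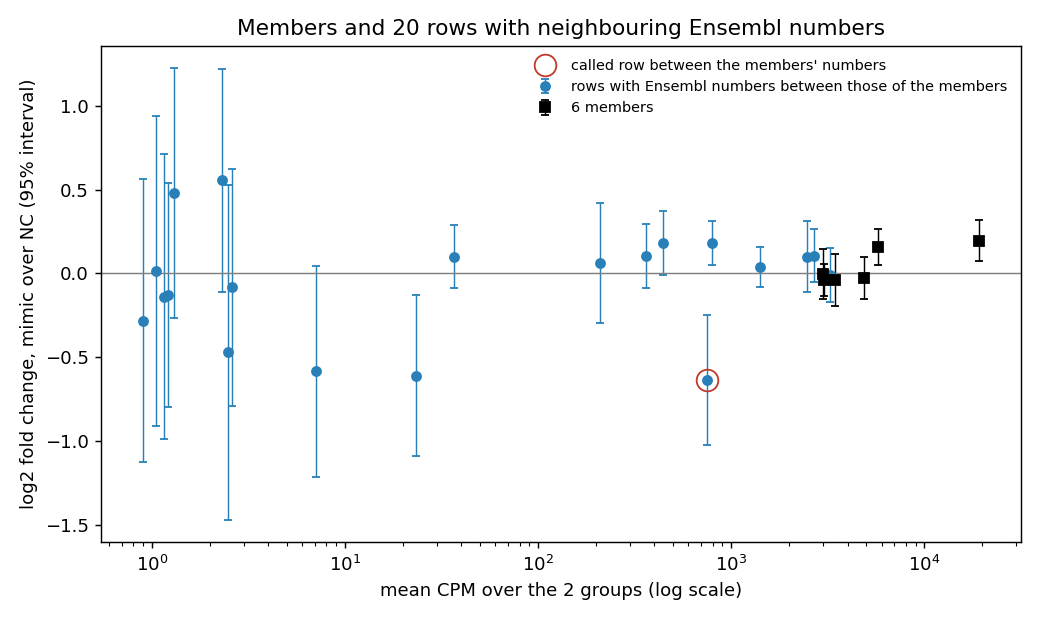
Log2 fold change of mimic over NC with its 95% interval (vertical axis) against the mean CPM of the groups (horizontal axis, log scale) for the 6 members (black) and the 20 tested rows with Ensembl numbers between theirs (blue). The ringed row is ENSBTAG00000043570 at -0.64, and intervals widen towards low CPM.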

How the data were processed

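Libraries were made from total RNA with an mRNA kit, per the labels' protocols. Per gene row, raw counts were deposited in 1 table for each library, per the file headers. HISAT2, DESeq2 and the build UMD3.1 are named without versions or roles, per the submitters' processing notes, and no source used here gives the counter, annotation or strandedness.

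Rows were kept by edgeR's default filter (minimum count 10, minimum total 15), scaled by TMM and tested over the whole table by edgeR 4.0.16 (quasi-likelihood F test, two-sided, R 4.3.3), modelling group alone. Standard errors are the log2 fold change divided by the root of F. CPM are counts in every 1000000 of all counts of the library unless called TMM-scaled. Alternatives used limma 3.58.1 (voom), DESeq2 1.42.0, other scalings and filters, a block for the replicate number, and leaving out each library. The procedure was tested on simulated data. Ratios of pairs of members within a library were compared between the groups by exact permutation tests. Pairs of libraries of a group differed beyond sampling noise (chi-square per degree of freedom 8.37 to 38.2 in NC and 2.67 to 4.20 in the mimic group).

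The members and lists were chosen with earlier results of these data known. Named were all members, the called rows with Ensembl numbers between theirs, and the 3 rows most correlated with them. The reference table of 37063 genes matched 0 of the IDs, so lists set by symbol (nuclear respiratory chain subunits, mitochondrial RNA machinery, cell type markers) were not analysed here. Plots used matplotlib 3.10.9.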

Additional observations from a re-analysis of the deposited data

How the results depend on the processing

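Against 1 called member in the reported edgeR fit, 0 were called with RLE, upper-quartile or library-size scaling, with DESeq2, and at an adjusted p under 0.01, with 1 or 2 members at an unadjusted p under 0.05 in each. Limma-voom called 2, and the omission of 1 library gave 0 to 2, with 2 only without NC replicate 2. Of all 13949 rows, RLE called 1625, upper-quartile scaling 1637, library-size scaling 1778, DESeq2 1750 and limma-voom 1608. Without NC replicate 2, 3460 of 14126 rows (24.5%) were called. Over all rows, 497 passed an adjusted p under 0.01, against 1643 under 0.05, and the omission of 1 library gave 472 to 3460, the highest without NC replicate 2. Among rows numbered between the members, against 1, the count was 2 without a filter and with DESeq2, 0 with limma-voom (4 at an unadjusted p under 0.05) and at an adjusted p under 0.01 (3 at an unadjusted p under 0.05), and 0 to 5 with 1 library omitted. The fit without a filter called 1679 of 19569 rows over the table. The cause of the changes between settings was not tested.

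COX1 and COX2 were above 0 and CYTB below 0 in all 15 alternatives that refitted the counts. With the stricter threshold on the reported fit included, COX1 was called in 7 of 16 (adjusted p 0.0040 to 0.185) and COX2 in 2 (0.0068 to 0.196). ATP6 turned to 0.000267 with the stricter filter, 0.0047 with limma-voom and 0.0013 with the replicate block, and ranged from -0.075 to 0.042 with 1 library omitted. COX3 ranged from -0.074 to 0.017 and ND1 from -0.11 to 0.017 in the same way. None of these values was called. The difference in summed share was 0.0529 to 0.264 points with 1 library omitted, and 0.228 points when the 10 most abundant other rows were left out of the total.

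In the fit with a replicate block, 1411 rows were called over the table, 1 member, and 3 rows numbered between the members. Deviations of same-numbered libraries correlated at 0.0031 to 0.054, and libraries were not treated as paired. Leaving out libraries for the pairwise ratios was added after the data had been seen. For the 8 pairs that did not overlap their direction could not turn.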
